A study of Mus musculus with 11 samples.

Results

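The 35 genes described here are immediate early genes and feedback regulators of NF-kB signalling, followed in mononuclear phagocytes from 3 regions of the mouse epididymis. They were chosen by symbol, and all 35 were found among the 37583 genes of the deposited expression table. All 35 also passed the filter on low counts that left 15116 genes for testing. The lowest number of reads of a member in any library was 9, for Egr3 in IS replicate 1. By role they fell into 8 subunits of the AP-1 transcription factor or its relatives (Fos, Fosb, Fosl2, Jun, Junb, Jund, Atf3, Maff), 8 zinc finger or nuclear receptor transcription factors (Egr1, Egr2, Egr3, Nr4a1, Nr4a2, Klf2, Klf4, Klf6), 13 feedback and early response genes (Dusp1, Dusp2, Dusp5, Zfp36, Zfp36l1, Btg1, Btg2, Gadd45b, Ppp1r15a, Ier2, Ier3, Ier5, Rhob) and 6 genes of NF-kB and cytokine feedback (Nfkbia, Nfkbiz, Nfkbid, Tnfaip3, Socs3, Cd69).

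The cells were EGFP+ CX3CR1+ phagocytes, sorted in a pair of passes, from CX3CR1 EGFP +/- mice aged 12 weeks. Each of the 11 RNA libraries pooled 4 epididymides: the initial segments (IS) gave 4 libraries, the caput/corpus gave 3 and the cauda gave 4. Sperm mature along the epididymis, a single coiled duct whose IS, caput, corpus and cauda follow one another, and the cauda stores them. By its title, the series asks what sets the phagocytes of each region apart in the genes they express. Genotype and age were the same in every library; the labels give no treatment and no further strain name. EGFP was driven by the Cx3cr1 gene, so the gate could hold any cell that makes or keeps EGFP. The labels do not say which animals a library came from, so p-values measure the spread between these libraries, which may be technical.

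Immediate early genes are transcribed within minutes of a stimulus, with no need for newly made protein. MAP kinase signals reach them through serum response factor and CREB, and NF-kB drives an overlapping set in macrophages, where bacterial products and cytokines are the best known triggers. Many of the induced proteins end the response: the Dusp phosphatases switch MAP kinases off, Zfp36 (tristetraprolin) destroys mRNAs with AU-rich 3′ ends, and Nfkbia and Tnfaip3 shut NF-kB down. Enzymatic or mechanical dissociation of tissue is known to induce the same genes in freshly isolated cells.

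The libraries held 16873180 to 31737132 reads on genes. Titles divided them into series Maj3 (5 libraries: IS replicates 1 and 2, caput/corpus replicate 1, cauda replicates 1 and 2) and Maj4 (6 libraries), and each series held all 3 regions. For 8 of the 11 samples the deposited count file held exactly the reads of its namesake column in the expression table. The file deposited for IS replicate 2 matched none of the columns, that under caput/corpus replicate 1 equalled the column of IS replicate 2, and that under cauda replicate 1 equalled the column of caput/corpus replicate 1. Values below rest on the expression column named for each sample, and the main counts are also given for the 8 samples without this conflict and for the counts as filed. Cauda replicate 1 had reads on 13434 genes, against 17053 to 18837 in the other columns. Macrophage markers were abundant in every library, summing over 12 genes to 16900 to 23780 CPM (reads scaled by TMM-adjusted library size) in IS, 12200 to 20720 in caput/corpus and 10360 to 13890 in cauda. Cx3cr1 itself, which encodes the fractalkine receptor, averaged 790 CPM over the IS libraries (SD 114, n = 4), 418 CPM over caput/corpus (SD 119, n = 3) and 311 CPM over cauda (SD 50.1, n = 4).

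RefSeq start sites of build GRCm38.p6 gave windows of 300 bases (250 before the start and 50 after) for 30 of the 35 members, 39 windows in all. Egr1, Egr3, Ier2, Nfkbiz and Cd69 had none in the table used. Both strands were searched for the CArG box, which binds serum response factor, the CRE core TGACGT, bound by CREB and ATF proteins, the AP-1 element TGANTCA, and the kappa-B element. The 7 windows below are printed 5′ to 3′ on the strand of the gene with every match in capitals. They are shown because Fos, Egr2, Dusp5 and Dusp1 carry elements of the MAP kinase route and Nfkbid, Tnfaip3 and Nfkbia carry kappa-B elements. A palindromic match such as TGACGTCA is found on both strands and is 1 site.
Fos, chr12:85473640-85473939, plus strand: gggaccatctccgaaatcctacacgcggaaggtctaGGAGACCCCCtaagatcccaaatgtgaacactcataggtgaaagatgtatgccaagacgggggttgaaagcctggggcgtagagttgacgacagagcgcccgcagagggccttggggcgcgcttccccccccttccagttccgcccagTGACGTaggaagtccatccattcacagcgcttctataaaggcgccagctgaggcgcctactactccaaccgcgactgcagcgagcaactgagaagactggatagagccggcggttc
Egr2, chr10:67537619-67537918, plus strand: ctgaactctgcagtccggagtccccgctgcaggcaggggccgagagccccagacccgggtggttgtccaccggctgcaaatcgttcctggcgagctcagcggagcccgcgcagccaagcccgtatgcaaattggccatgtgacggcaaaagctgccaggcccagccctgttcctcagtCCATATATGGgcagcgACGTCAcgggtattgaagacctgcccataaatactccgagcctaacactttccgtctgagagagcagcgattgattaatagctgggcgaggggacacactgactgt
Dusp5, chr19:53528895-53529194, plus strand: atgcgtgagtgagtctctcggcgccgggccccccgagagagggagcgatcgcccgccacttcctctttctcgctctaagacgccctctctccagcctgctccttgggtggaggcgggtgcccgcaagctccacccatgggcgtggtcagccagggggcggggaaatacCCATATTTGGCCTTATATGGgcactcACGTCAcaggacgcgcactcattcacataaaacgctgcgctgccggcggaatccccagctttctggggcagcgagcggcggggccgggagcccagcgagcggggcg
Dusp1, chr17:26508423-26508722, minus strand: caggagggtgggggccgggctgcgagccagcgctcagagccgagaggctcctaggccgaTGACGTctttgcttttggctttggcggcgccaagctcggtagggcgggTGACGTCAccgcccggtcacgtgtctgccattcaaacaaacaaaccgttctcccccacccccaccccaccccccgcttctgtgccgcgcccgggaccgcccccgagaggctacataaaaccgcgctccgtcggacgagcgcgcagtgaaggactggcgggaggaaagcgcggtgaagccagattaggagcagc
Nfkbid, chr7:30422156-30422455, plus strand: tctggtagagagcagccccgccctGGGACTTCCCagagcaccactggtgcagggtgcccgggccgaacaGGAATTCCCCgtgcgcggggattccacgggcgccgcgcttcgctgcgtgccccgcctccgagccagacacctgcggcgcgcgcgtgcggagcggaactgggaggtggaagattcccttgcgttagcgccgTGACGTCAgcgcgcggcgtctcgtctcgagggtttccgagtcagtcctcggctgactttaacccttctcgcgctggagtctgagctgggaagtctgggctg
Tnfaip3, chr10:19015361-19015660, minus strand: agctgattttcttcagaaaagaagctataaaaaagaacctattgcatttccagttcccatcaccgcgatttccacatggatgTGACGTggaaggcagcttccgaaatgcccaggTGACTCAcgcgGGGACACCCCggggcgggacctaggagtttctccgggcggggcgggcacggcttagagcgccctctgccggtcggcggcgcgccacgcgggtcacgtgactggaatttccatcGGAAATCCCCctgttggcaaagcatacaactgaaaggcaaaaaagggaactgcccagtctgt
Nfkbia, chr12:55492598-55492897, minus strand: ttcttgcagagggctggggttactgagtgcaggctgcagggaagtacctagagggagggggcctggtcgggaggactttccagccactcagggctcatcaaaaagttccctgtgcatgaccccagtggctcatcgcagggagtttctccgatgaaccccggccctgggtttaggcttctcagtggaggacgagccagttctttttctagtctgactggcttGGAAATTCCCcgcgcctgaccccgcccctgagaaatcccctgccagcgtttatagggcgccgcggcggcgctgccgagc

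The CRE core was present in 11 of the 30 members (36.7%): Atf3, Btg1, Btg2, Dusp1, Dusp5, Egr2, Fos, Maff, Nfkbid, Ppp1r15a and Tnfaip3. It was found in 8.37% of the 27025 genes with a window, and in 12.8% of the 10052 of these that were also tested here. Kappa-B elements were in 9 members (30%), namely Fos, Fosb, Fosl2, Ier3, Maff, Nfkbia, Nfkbid, Nr4a1 and Tnfaip3, against 5.14% of all genes with a window and 6.5% of those tested. CArG boxes were in 3 members (Dusp5, Egr2 and Zfp36), or 10.0%, against 1.81% and 1.7%. The AP-1 element was in 2 members (Tnfaip3 and Zfp36l1), or 6.7%, against 8.97% and 6.61%. In all, 18 of the 30 held at least 1 of the 4 elements. In the Dusp5 window a pair of CArG boxes stood next to each other, followed by a CRE core, and Tnfaip3 was the member with a CRE core, an AP-1 element and kappa-B elements in 1 window. These are matches of letters in a fixed window and say nothing of binding in these cells.

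The 3′ end sequences are AU-rich elements in the 3′ UTR, which shorten the life of an mRNA. The stretches below, of 30 bases each, are the ones with the most ATTTA pentamers in the 3′ UTR of 5 members, from 1 transcript a gene of the GENCODE M21 annotation, with the pentamers in capitals.
Ppp1r15a, chr7, 3′ UTR from base 7: gtagtttcctattATTTATTTATTTATTTA
Fos, chr12, 3′ UTR from base 632: aacgtttttattgtgttttcaATTTATTTA
Dusp1, chr17, 3′ UTR from base 84: ggctcatgggagctggtccttATTTATTTA
Zfp36, chr7, 3′ UTR from base 566: tgggccctttATTTAtgacgactttATTTA
Ier3, chr17, 3′ UTR from base 166: ctccgtgtctaattaatATTTAtgtATTTA
The short 3′ UTR of Ppp1r15a, which encodes a stress-induced regulator of translation, carried 4 overlapping pentamers in 1 run. At least 1 ATTTA was present in 33 of the 35 members (94.3%), against 64.8% of 13252 tested genes with an annotated 3′ UTR. Gadd45b and Ier2 had none. The longer element TATTTAT was present in 21 members (60%) against 26.7% of tested genes, and 12 members (34.3%) had 2 or more, against 8.9%. The median 3′ UTR was 1186 bases in members and 934 in tested genes. Members also had few exons, with a median of 3 against 9.

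Most of the 35 genes were higher in caput/corpus and cauda phagocytes than in IS phagocytes, and none differed between caput/corpus and cauda by the test. In caput/corpus 24 of 35 members rose over IS and none fell. In cauda 28 rose over IS and 1, Rhob, fell. Median differences were 1.08 on the log2 scale for caput/corpus minus IS and 1.09 for cauda minus IS over the members, against -0.03 and -0.05 over all 15116 genes tested. A gene was called at a Benjamini-Hochberg adjusted p under 0.05 from edgeR's quasi-likelihood test, with title series as a covariate and all 11 libraries in 1 fit. By that rule 3.74% of all tested genes differed between caput/corpus and IS (2.95% were higher in caput/corpus), 16.3% between cauda and IS (8.9% were higher in cauda) and 0.615% between cauda and caput/corpus. Both comparisons with IS use the same 4 IS libraries, so they are not independent of each other. In bulk RNA, fewer cells of a kind and less RNA per cell cannot be told apart.

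**Figure D1:**
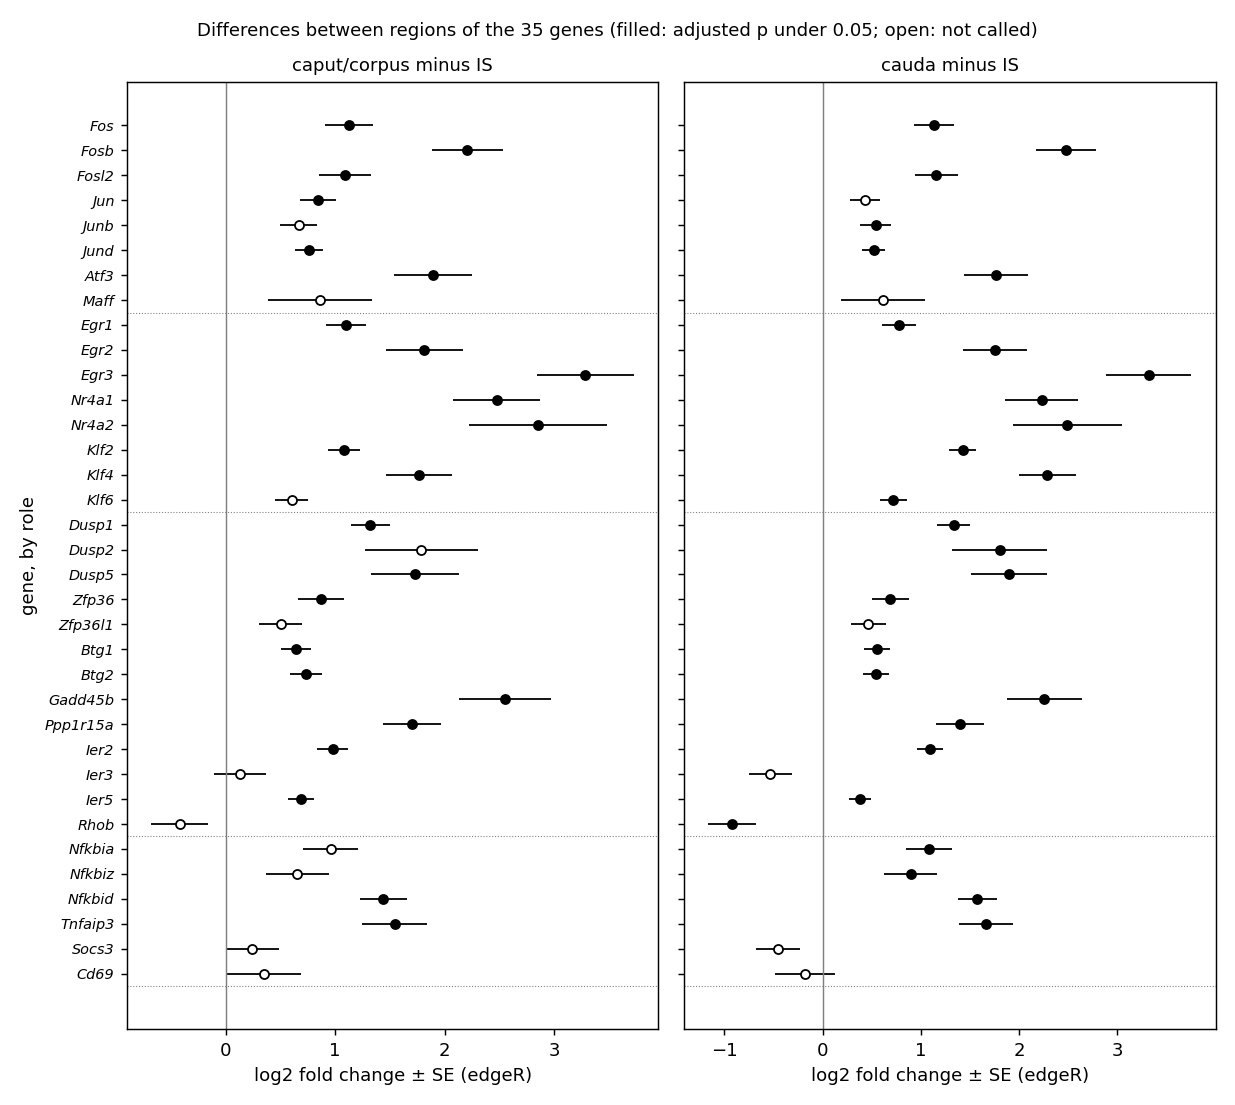
Log2 fold change of each of the 35 genes (rows, grouped by role with dotted lines) for caput/corpus minus IS and for cauda minus IS; points are edgeR estimates, bars are standard errors, and filled points passed an adjusted p of 0.05. In the left panel 24 points are filled, all to the right of 0, and in the right panel 29 are filled, with Rhob alone to the left of 0.

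These counts depended on which reads are taken for 3 samples. Epididymal epithelium markers summed to 2955 CPM in the column of IS replicate 2, whose reads are filed under caput/corpus replicate 1. The columns of caput/corpus replicates 2 and 3 summed to 342 and 340 CPM. In the column of caput/corpus replicate 1, whose reads are filed under cauda replicate 1, the sum was 582 CPM. The cauda columns summed to 3.94 to 9.9 CPM. Which file belongs to which sample was not tested. With the 8 samples whose 2 files match, 28 members were called in caput/corpus and 25 in cauda against IS. Of all tested genes, 6.11% and 15.6% were called there. With the counts as filed, no member was called in either comparison (edgeR; 1 and 2 members at an unadjusted p under 0.05). In that fit 0% of all tested genes were called in caput/corpus and 0.0263% in cauda. The median difference of the members became -0.13 for caput/corpus and -0.30 for cauda. The count file filed under IS replicate 2, the one that equals no column, held 9.52% of its reads on the 35 members, against 1.08% to 3.53% in the 11 columns. Leaving that file out of the counts as filed, an alternative chosen after seeing the data, gave median differences of 0.88 and 1.01. In caput/corpus 0 members were called (edgeR; 29 at an unadjusted p under 0.05) and in cauda 19, against 0% and 11.7% of all tested genes.

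Among the AP-1 genes, whose proteins pair to bind DNA, 6 of 8 rose in caput/corpus and 6 of 8 in cauda. Fosb (ENSMUSG00000003545), a Fos family subunit, was at 23.6, 20.04, 14.5 and 35.2 CPM in IS replicates 1 to 4. It was at 70.0, 144 and 133 CPM in caput/corpus replicates 1 to 3 and at 140, 107, 176 and 96.0 CPM in cauda replicates 1 to 4. No IS library reached the lowest of the others. The fold over IS was 4.62 in caput/corpus (log2 2.21 ± 0.32 SE, edgeR adjusted p = 0.00612) and 5.57 in cauda (log2 2.48 ± 0.31, edgeR adjusted p = 0.000541).

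Fos (ENSMUSG00000021250), the founding member of the family, was at 1883, 2607, 818 and 1234 CPM in IS, at 3664, 2909 and 2320 in caput/corpus and at 5298, 4678, 2623 and 1812 in cauda, each in order of replicate. The groups overlapped: IS replicate 2 of series Maj3 lay above caput/corpus replicate 3 and cauda replicate 4, both of Maj4. Within each series every caput/corpus and cauda library was above every IS library. Its fold over IS was 2.19 in both regions (edgeR adjusted p = 0.0199 and 0.00403).

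Jund (ENSMUSG00000071076), the Jun family subunit that resting cells also make, was at 496, 519, 321 and 291 CPM in IS. In caput/corpus it was at 884, 575 and 450 CPM, and in cauda at 672, 749, 514 and 384 CPM. It differed by 0.76 ± 0.13 and 0.52 ± 0.12 on the log2 scale (edgeR adjusted p = 0.00974 and 0.0131), less than Fosb. Jun was at 867 to 1425 CPM in IS, 1491 to 2529 in caput/corpus and 904 to 2193 in cauda. It rose in caput/corpus (log2 0.84 ± 0.17, edgeR adjusted p = 0.0204) and was not called in cauda (log2 0.43 ± 0.15, edgeR adjusted p = 0.0864).

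Of the other AP-1 genes, Atf3, a stress-induced partner and repressor, rose 3.73-fold in caput/corpus and 3.40-fold in cauda, and ranged from 97.1 CPM in IS replicate 3 to 1407 CPM in cauda replicate 1. Fosl2 rose 2.13-fold and 2.23-fold. Junb was not called in caput/corpus (1.59-fold, edgeR adjusted p = 0.0600) and was called in cauda (1.46-fold, edgeR adjusted p = 0.0412). Maff, a small partner without an activation domain, was at 1.78 to 6.73 CPM in all libraries and was called in neither. Jun, Junb and Jund each overlap a gene on the opposite strand (Junos, Prdx2 and Gm11175), and the deposited files describe the counting as not stranded. How much reads from the shared stretches bear on these values was not tested.

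**Figure D2:**
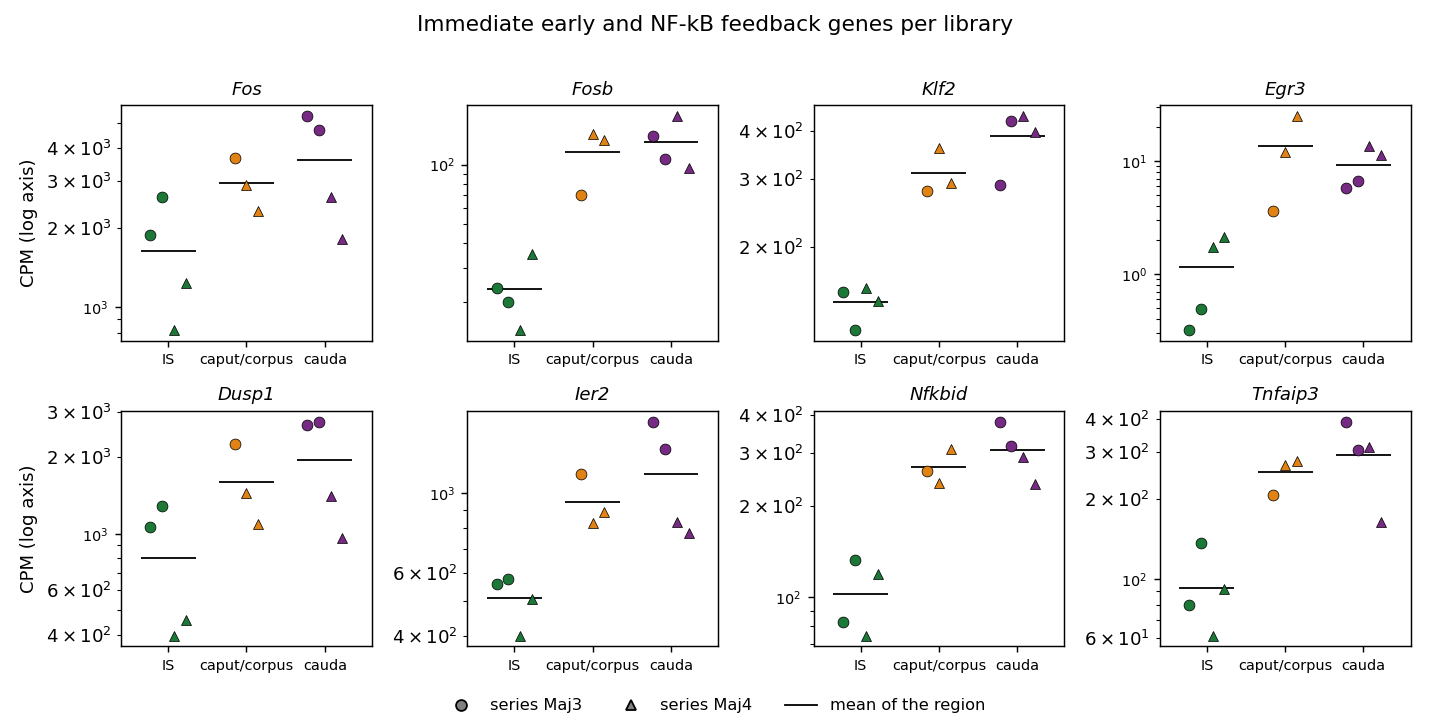
CPM (log axis, own scale in each panel) of 8 members in each library, circles for series Maj3 and triangles for Maj4, with a line at the mean of each region. For Fosb, Klf2, Egr3, Ier2, Nfkbid and Tnfaip3 every caput/corpus and cauda library lies above every IS library, while for Fos and Dusp1 the 3 regions overlap.

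The zinc finger and nuclear receptor factors held the highest folds. In caput/corpus 7 of the 8 rose over IS (all but Klf6), and in cauda all 8 rose. Egr3 (ENSMUSG00000033730), an early growth response factor, was scarce, at 0.319, 0.492, 1.73 and 2.11 CPM in IS. It was at 3.58, 11.9 and 24.9 CPM in caput/corpus and at 5.76, 6.65, 13.4 and 11.3 CPM in cauda. Its fold was 9.76 in caput/corpus and 9.99 in cauda (edgeR adjusted p = 0.00437 and 0.000704). Within each region it was lower in the Maj3 libraries than in the Maj4 libraries.

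Egr1, the most abundant of the Egr genes, went from 556 to 1047 CPM in IS to 1492 to 2025 CPM in caput/corpus and 1009 to 1749 CPM in cauda. Its fold was 2.14 and 1.71 (edgeR adjusted p = 0.00985 and 0.0111). Egr2, which is linked to macrophage differentiation, was at 27.7 to 96.0 CPM in IS, 181 to 222 in caput/corpus and 153 to 279 in cauda, with no overlap between IS and either region, and rose 3.52-fold and 3.37-fold.

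Nr4a1 and Nr4a2 encode orphan nuclear receptors, of which Nr4a1 is needed for the patrolling type of monocyte. Nr4a1 was at 213, 413, 117 and 255 CPM in IS, at 1077, 1229 and 1301 in caput/corpus and at 1848, 1370, 1074 and 485 in cauda. The IS and caput/corpus libraries were far apart, and cauda replicate 4 lay nearest to the highest IS library. Folds were 5.56 and 4.69 (edgeR adjusted p = 0.00886 and 0.00267). Nr4a2 stayed under 7.05 CPM in IS and was at 12.0 to 45.4 CPM in caput/corpus and 12.3 to 46.1 CPM in cauda.

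Klf2 (ENSMUSG00000055148), a factor that restrains inflammatory activation of myeloid cells, had the smallest p of all members in cauda. It was at 153, 122, 157 and 145 CPM in IS, a narrow range, at 279, 361 and 294 CPM in caput/corpus and at 290, 426, 438 and 398 CPM in cauda. The fold was 2.11 in caput/corpus (log2 1.08 ± 0.15, edgeR adjusted p = 0.00437) and 2.69 in cauda (log2 1.43 ± 0.14, edgeR adjusted p = 0.000162). Unlike most members, its Maj3 libraries were not the higher ones in cauda.

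Klf4 (ENSMUSG00000003032), a factor of monocyte differentiation, was at 14.4, 15.0, 17.8 and 43.1 CPM in IS, at 42.5, 108 and 107 in caput/corpus and at 107, 71.5, 126 and 108 in cauda. IS replicate 4 was just above caput/corpus replicate 1, and the other IS libraries were well below both regions. The fold was 3.41 and 4.89 (edgeR adjusted p = 0.0107 and 0.000577). Klf6 rose by 0.72 ± 0.14 on the log2 scale in cauda (edgeR adjusted p = 0.00583) and differed by 0.60 ± 0.15 in caput/corpus (edgeR adjusted p = 0.0563).

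Of the 13 feedback and early response genes, 9 rose in caput/corpus and 10 rose in cauda, where Rhob fell. Dusp1 (ENSMUSG00000024190), the phosphatase that switches off p38 and JNK, was at 1063, 1281, 397 and 460 CPM in IS. It was at 2252, 1451 and 1088 CPM in caput/corpus and at 2677, 2755, 1408 and 960 CPM in cauda. Series Maj3 was higher than Maj4 in each region, and within each series every caput/corpus and cauda library was above every IS library. The fold was 2.501 in caput/corpus and 2.52 in cauda (edgeR adjusted p = 0.00449 and 0.000585). Dusp1 overlaps Ergic1 on the opposite strand.

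Dusp2 and Dusp5, nuclear phosphatases that act on ERK, were at 10.3 to 37.1 and 13.3 to 27.3 CPM in IS. In caput/corpus they were at 55.3 to 59.4 and 52.3 to 68.2 CPM. Cauda replicate 1 was the highest library for both, at 170 and 139 CPM, and the other cauda libraries ranged from 22.5 to 61.0 and from 38.9 to 71.3. Dusp5 was called in both regions and Dusp2 in cauda alone, at 3.45-fold in caput/corpus (edgeR adjusted p = 0.1002) and 3.495-fold in cauda (edgeR adjusted p = 0.0294).

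Ier2 (ENSMUSG00000053560), an intronless early response gene, was at 558, 579, 401 and 508 CPM in IS, at 1134, 828 and 886 in caput/corpus and at 1585, 1329, 833 and 774 in cauda. The lowest caput/corpus and cauda libraries lay above the highest IS library. Folds were 1.97 and 2.14 (edgeR adjusted p = 0.00612 and 0.000541). Its relative Ier5 was at 382 to 522 CPM in IS, 721 to 757 in caput/corpus and 538 to 640 in cauda. It rose 1.61-fold and 1.30-fold (edgeR adjusted p = 0.0131 and 0.0446), without overlap between IS and either region.

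The stress genes Gadd45b and Ppp1r15a rose by 2.56 ± 0.42 and 1.70 ± 0.27 on the log2 scale in caput/corpus (edgeR adjusted p = 0.00949 and 0.00752). In cauda they rose by 2.26 ± 0.38 and 1.40 ± 0.24 (edgeR adjusted p = 0.00289 and 0.00326). Gadd45b was at 12.3 to 56.1 CPM in IS, 112 to 147 in caput/corpus and 60.4 to 227 in cauda, and Ppp1r15a overlaps Tulp2 on the opposite strand. Zfp36 rose 1.83-fold and 1.61-fold (edgeR adjusted p = 0.0482 and 0.0336) and was the most abundant member per gene length in all 3 regions, at 1303 ± 466 RPKM in IS, 2117 ± 302 in caput/corpus and 2117 ± 778 in cauda. Its paralog Zfp36l1 was called in neither region (1.42-fold and 1.38-fold, edgeR adjusted p = 0.244 and 0.110).

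The anti-proliferative genes Btg1 and Btg2 rose in both regions by less than 1 on the log2 scale. Ier3, an NF-kB and stress target that limits cell death, was at 175 to 291 CPM in IS, 199 to 237 in caput/corpus and 86.8 to 216 in cauda, and was called in neither. Rhob, which encodes an endosomal small GTPase, went the other way. It was at 93.6, 80.1, 270 and 156 CPM in IS, at 86.2, 148 and 114 in caput/corpus and at 58.8, 39.8, 133 and 78.2 in cauda. The regions overlapped, but within each series both cauda libraries were below both IS libraries. Its log2 difference was -0.92 ± 0.24 in cauda (edgeR adjusted p = 0.0262) and -0.42 ± 0.26 in caput/corpus (edgeR adjusted p = 0.545).

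In the NF-kB and cytokine feedback group, 2 of 6 rose in caput/corpus and 4 of 6 in cauda. Nfkbid (ENSMUSG00000036931), a nuclear IkB protein, was at 82.6, 133, 74.3 and 119 CPM in IS, at 261, 239 and 309 in caput/corpus and at 381, 317, 291 and 238 in cauda. The highest IS library was well below the lowest of the others. Folds were 2.71 and 2.98 (edgeR adjusted p = 0.00653 and 0.000647). Tnfaip3 (ENSMUSG00000019850), the A20 enzyme that edits ubiquitin to end NF-kB signalling, was at 80.2, 137, 61.3 and 91.6 CPM in IS, at 208, 270 and 280 in caput/corpus and at 391, 305, 313 and 164 in cauda. The groups did not overlap, and folds were 2.92 and 3.17 (edgeR adjusted p = 0.0189 and 0.00262).

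Nfkbia, the classical inhibitor of NF-kB, was at 233 to 449 CPM in IS, 478 to 600 in caput/corpus and 344 to 1272 in cauda, with cauda replicate 1 highest. It was called in cauda (2.12-fold, edgeR adjusted p = 0.0113) and not in caput/corpus (1.94-fold, edgeR adjusted p = 0.0714). Nfkbiz, an atypical nuclear IkB protein, was called in cauda (1.86-fold, edgeR adjusted p = 0.0454) and not in caput/corpus (1.57-fold, edgeR adjusted p = 0.317). Socs3, an inhibitor of cytokine receptor signalling, was at 239, 385, 268 and 246 CPM in IS, at 338, 355 and 286 in caput/corpus and at 170, 285, 241 and 136 in cauda. Cd69, an activation marker of leukocytes, was at 9.39 to 27.5 CPM in IS, 15.4 to 21.7 in caput/corpus and 6.65 to 18.2 in cauda. Neither was called in any comparison, and for both the regions overlapped.

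Between cauda and caput/corpus no member was called by edgeR, with 5 at an unadjusted p under 0.05 (0 by DESeq2, with 6 at an unadjusted p under 0.05). The median member difference was -0.09 on the log2 scale. Those 5 were Socs3 (log2 -0.70 ± 0.24), Ier3 (-0.66 ± 0.24), Ier5 (-0.31 ± 0.12) and Jun (-0.41 ± 0.17), lower in cauda, and Klf2 (0.35 ± 0.15), higher in cauda, with edgeR adjusted p from 0.278 to 0.385. These misses do not show that the regions are alike. By mean CPM, 19 members were ordered cauda, caput/corpus, IS and 12 were ordered caput/corpus, cauda, IS. For the other 4 the lowest mean was in cauda: 3 (Ier3, Socs3 and Cd69) were ordered caput/corpus, IS, cauda and 1, Rhob, was ordered IS, caput/corpus, cauda.

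Looked at library by library, most members were high or low together. Each gene's log2(CPM + 1) was set against the mean of its 3 region means, and the median over the 35 genes was taken in each library. It was -0.62, -0.28, -0.998 and -0.72 in IS replicates 1 to 4, 0.38, 0.33 and 0.36 in the caput/corpus libraries, and 0.89, 0.52, 0.22 and -0.24 in those of the cauda. The caput/corpus libraries were close together, the cauda libraries were spread widely, and cauda replicate 4 lay just above IS replicate 2. As a share of all reads on genes, the members made up 1.08% to 1.92% in IS, 2.37% to 2.79% in caput/corpus and 1.56% to 3.53% in cauda.

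Cauda replicate 1 was the highest of the 11 libraries for 17 members, and IS replicate 3 was the lowest for 21. By region, the highest library was from IS for 4 members, from caput/corpus for 8 and from cauda for 23, and the lowest was from IS for 31 and from cauda for 4. How often each library was highest or lowest over all tested genes was not counted. These counts therefore do not show a trait particular to the members. Cauda replicate 1 is also the library with the fewest genes detected and with no matching count file. Without it, 28 members were called in caput/corpus and 27 in cauda (25 higher and 2 lower, Rhob and Ier3). Of all tested genes, 9.02% and 20.9% were called in that fit.

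**Figure D3:**
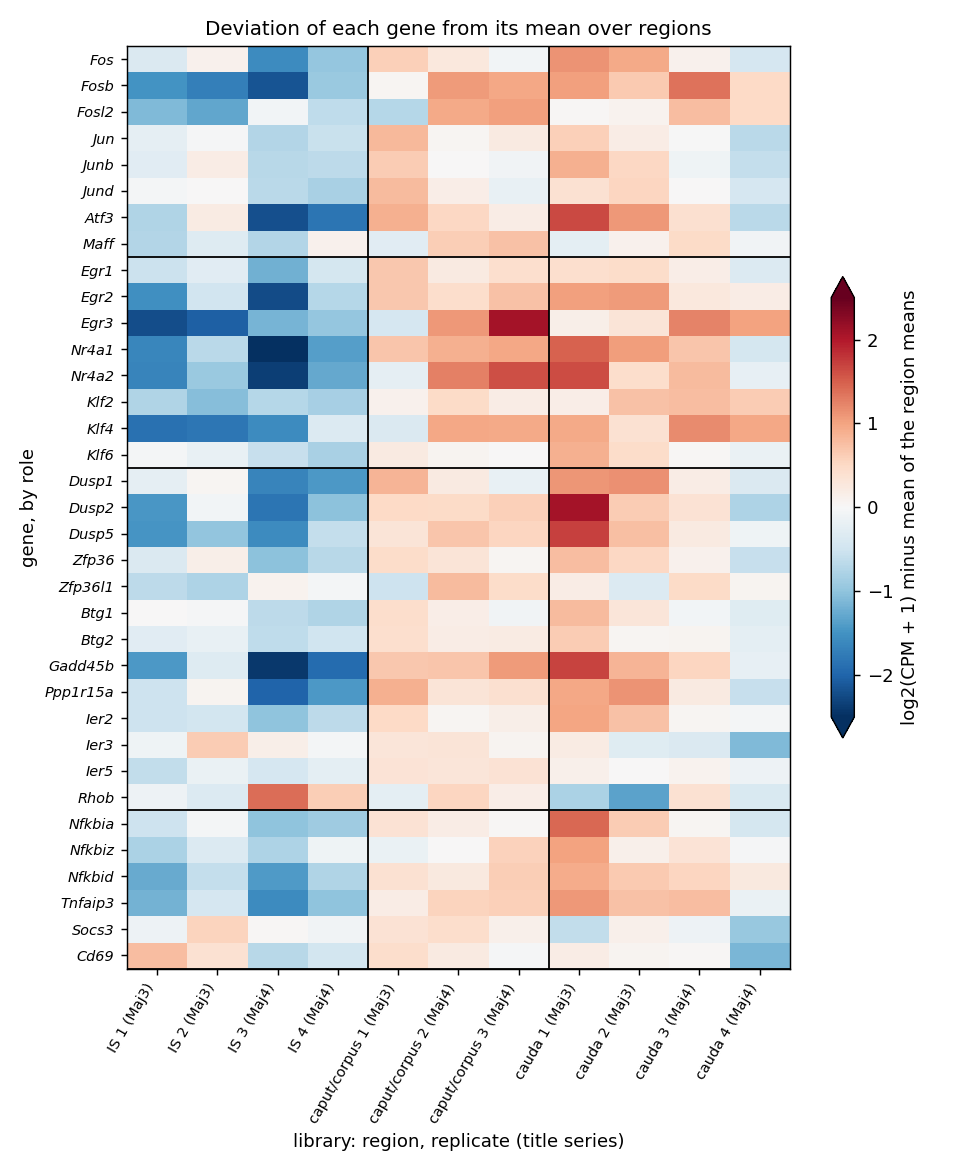
Deviation of log2(CPM + 1) from the mean of the 3 region means for each of the 35 genes (rows, by role, lines between roles) in each of the 11 libraries (columns, by region); red is higher and blue lower. The IS columns are mostly blue, with IS replicate 3 lowest for 21 genes, and the column of cauda replicate 1 holds the highest value of 17 genes. The same was not counted over all tested genes.

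The libraries were also compared by title series. In cauda, both Maj3 libraries were above both Maj4 libraries for 21 of the 35 members, against 22.2% of all tested genes, and in IS for 15, against 30.8%. Within each title series, every caput/corpus library was above every IS library for 31 members (16% of all tested genes) and every cauda library above every IS library for 28 (15.3%). The members that missed this were Ier3, Rhob, Socs3 and Cd69, and for cauda also Jun, Maff and Zfp36l1. Across series, every caput/corpus library was above every IS library for 19 members (7.51% of tested genes) and every cauda library for 15 (7.95%). In the Maj4 libraries alone 16 members were called in caput/corpus and 15 in cauda, against 2.95% and 7.51% of all tested genes. The Maj3 libraries alone, with 1 caput/corpus library, are too few to decide which members pass. Their median member differences from IS were 0.95 in caput/corpus and 1.19 in cauda. Without the series as a covariate 7 and 12 members were called, against 1.49% and 9.7% of all tested genes.

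The number of members that passed in caput/corpus also changed when single libraries were left out. Leaving out each of the 11 libraries in turn, 12 of the 24 calls held every time: Fosb, Jund, Egr1, Egr3, Nr4a1, Klf2, Klf4, Dusp1, Gadd45b, Ppp1r15a, Ier2 and Nfkbid. Of the other 12, Fosl2, Nr4a2 and Dusp5 each lost their call in 8 of the 11 fits, Zfp36 and Btg1 in 7, Jun, Atf3, Btg2 and Tnfaip3 in 5, Fos in 4, Ier5 in 3 and Egr2 in 2. The count fell to 14 without IS replicate 1, 13 without IS replicate 3, 13 without caput/corpus replicate 2 and 12 without caput/corpus replicate 3. Over all tested genes the share called fell from 3.74% to 1.84%, 1.64%, 1.53% and 1.65% in the same fits. In cauda 22 of the 29 calls held every time, and 7 did not. Of the 11 fits, Junb and Ier5 each lost their call in 10, Nfkbiz in 8, Zfp36 in 6, Rhob in 4, and Dusp2 and Btg2 in 3 each. No fit that left out a library changed the direction of a called member.

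Other genes of the same pathways were taken from lists made by function. Of 29 tested immediate early genes outside the 35, 10 rose and none fell in caput/corpus, and 9 rose and 4 fell in cauda. Bhlhe40, a circadian and stress-induced repressor, rose by 1.82 ± 0.22 and 2.06 ± 0.21 on the log2 scale (edgeR adjusted p = 0.00312 and 0.000190). Among the others, Csrnp1, Plk2 and Sik1 rose in caput/corpus, and Ier5l, Mcl1 and Sik1 in cauda. Of 16 genes of the MAP kinase, SRF and CREB arm, which carries the signal to these promoters, none was called in caput/corpus (5 at an unadjusted p under 0.05). In cauda Map2k3, Srf and Map2k1 rose and Mapk8 fell.

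Of 22 NF-kB subunits, kinases and other regulators, Tnip3 and Traf1 rose in caput/corpus, and Tnip3, Traf1, Nfkb1, Ikbkb and Rel rose in cauda. Tnip3, an inhibitor that binds A20, was at 12.4 to 26.5 CPM in IS, 72.4 to 92.3 in caput/corpus and 74.0 to 211 in cauda. Of 20 inflammatory targets of NF-kB, 3 rose in caput/corpus (Ccl7, Ptgs2 and Tnfsf9), while in cauda 5 rose and 4 fell, among them Icam1 (log2 -0.81 ± 0.10, edgeR adjusted p = 0.000709), Cxcl10 and Il1a. Icam1, an adhesion molecule, was also lower in cauda than in caput/corpus (log2 -0.64 ± 0.11, edgeR adjusted p = 0.0376).

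Heat shock genes, chaperones that handling of tissue can also induce, rose in part. Of 16 heat shock proteins and co-chaperones 6 rose in caput/corpus and 5 in cauda, with median differences of 0.69 and 0.16 on the log2 scale. Hspa1a, an inducible Hsp70, was at 203, 431, 66.1 and 76.8 CPM in IS, at 1064, 790 and 761.8 in caput/corpus and at 888, 592, 567 and 138 in cauda. As for the members, cauda replicate 4 was the lowest cauda library and IS replicate 2 the highest IS library. Between cauda and caput/corpus all 16 had a negative difference and none was called (edgeR; 3 at an unadjusted p under 0.05). The 12 reference genes had median differences of 0.27 and 0.24, with 2 of 12 called higher in caput/corpus and 3 of 12 in cauda. Whether dissociation had a part in the differences between regions was not tested, since no library from undissociated tissue was among these samples.

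**Figure D4:**
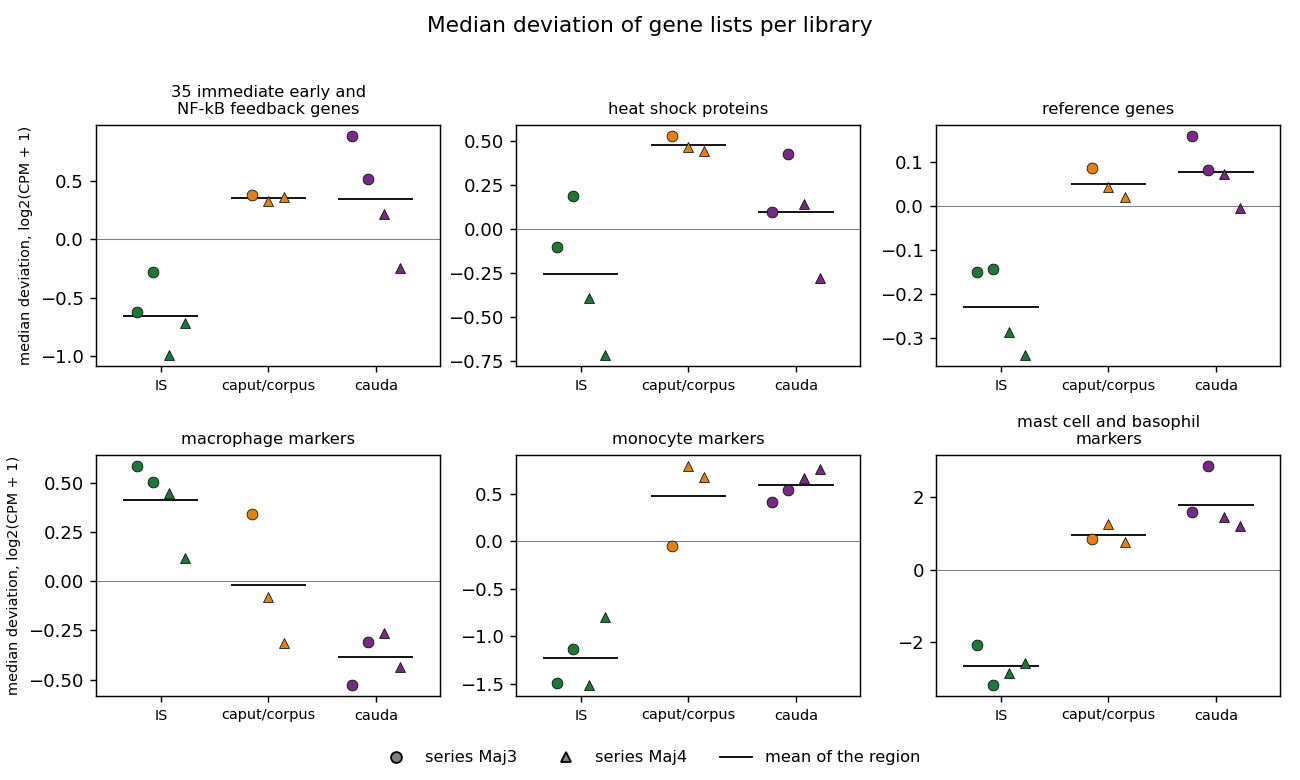
Median deviation of log2(CPM + 1) per library for the 35 genes, 16 heat shock genes, 12 reference genes and 3 lists of 12 cell type markers, circles for series Maj3, triangles for Maj4 and lines at region means; each panel has its own scale. The 35 genes run from -0.998 in IS replicate 3 to 0.89 in cauda replicate 1, and the mast cell markers from -3.19 in IS replicate 2 to 2.88 in cauda replicate 2.

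Markers of several cell types also differed between the regions. Mast cell and basophil markers summed to 46.6 to 126 CPM over 12 genes in IS, 858 to 1215 in caput/corpus and 1239 to 4511 in cauda, and 11 of 12 were called higher in caput/corpus and 12 of 12 in cauda. The mast cell proteases Tpsb2 and Cpa3 were among them. Monocyte markers summed to 761 to 1658, 2525 to 3532 and 3332 to 5131 CPM, with 7 and 10 of 12 called higher. Conventional dendritic cell markers summed to 1278 to 1722, 2699 to 3194 and 2631 to 3905 CPM, with 7 and 8 of 12 higher. Macrophage markers were lower, 2 of 12 in caput/corpus and 8 of 12 in cauda, Cx3cr1 and Mertk in both.

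Epididymal epithelium markers, 16 genes, summed to 1274 to 2955 CPM in IS, 340 to 582 in caput/corpus and 3.94 to 9.9 in cauda. Lymphocyte markers, 13 genes, summed to 55.7 to 128, 85.8 to 140 and 2.91 to 60.2 CPM, and neutrophil markers, 8 genes, to 2.43 to 4.7, 5.27 to 18.8 and 8.25 to 14.7 CPM, with 6 of the 8 at 0 in every IS library. Smooth muscle, fibroblast and endothelium markers, 14 genes, summed to 177 to 628, 82.3 to 435 and 31.8 to 126 CPM, and sperm and germ cell markers, 8 genes, to at most 9.58 CPM in any library. The part of these cell types in the differences of the 35 genes was not tested.

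The count file that equals no column stood apart for these genes. It held 30383072 reads on genes and 17389 genes with a read. Of the 35 members 32 were higher in it than in all 11 columns, against 5.3% of all tested genes. More than 2 times the highest column was reached by 22 members, and the share of all tested genes that did so was not counted. As RPM (reads scaled by the total on genes), Fos was at 9586, Jun at 9190, Egr1 at 8392, Dusp1 at 8134 and Atf3 at 7068, against at most 5079, 2395, 1917, 2567 and 1348 in the columns. Egr3, Zfp36l1 and Rhob were the members within the range of the columns. Heat shock genes were at 22867 on this scale against at most 5797, and inflammatory NF-kB targets at 19622 against at most 5164. Reference genes (12406) were within the range of the columns, as were mast cell and basophil markers (607), macrophage markers (13355) and epithelium markers (346). Against the IS columns alone, the label it was filed under, mast cell and basophil markers were above the range (45.5 to 123). Macrophage markers (18210 to 23222 in IS) and epithelium markers (1373 to 2886 in IS) were below it, and reference genes were within it. Against the caput/corpus columns, epithelium markers (345 to 552), macrophage markers (12871 to 19619) and reference genes were within the range. Mast cell and basophil markers were below it (905 to 1223). Against the cauda columns, epithelium markers were above the range (3.84 to 9.49) and mast cell and basophil markers below it (1257 to 4149). Macrophage markers (9930 to 13383) and reference genes were within it.

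**Figure D5:**
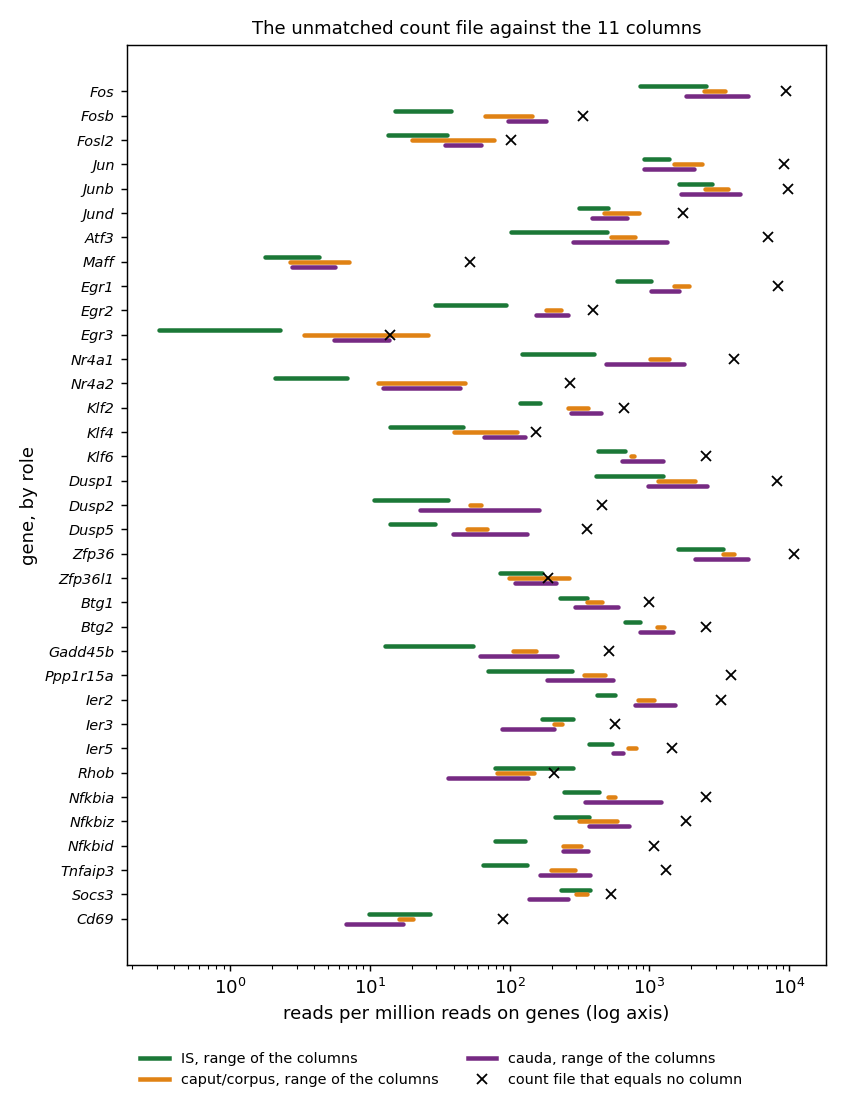
RPM (log axis) of the 35 genes (rows, by role) in the count file that equals no column (crosses) and the range over the columns of IS, caput/corpus and cauda (bars). The crosses lie to the right of all 3 bars for 32 of the 35 genes, the exceptions being Egr3, Zfp36l1 and Rhob.

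Per gene length, the members spanned a wide range of levels, from 0.72 to 1303 RPKM by mean in IS, from 2.46 to 2117 in caput/corpus and from 1.86 to 2117 in cauda. Zfp36, Junb, Fos and Ier2 were the 4 highest in IS, at 1303 ± 466, 1116 ± 336, 697 ± 333 and 336 ± 52.3 RPKM (SD, n = 4). Zfp36 was above Junb in 3 of the 4 IS libraries and just below it in IS replicate 3 (858 against 862 RPKM). Egr3, Nr4a2 and Maff were the 3 lowest in IS, at 0.72 ± 0.55, 0.96 ± 0.45 and 1.22 ± 0.49 RPKM. Means over 100 RPKM were reached by 15 members in IS, 19 in caput/corpus and 19 in cauda.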

How the data were processed

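RNA of EGFP+ CX3CR1+ cells was sequenced in 11 libraries. The authors deposited a table of RPKM values for all libraries and a count file for each sample, and per the submitters' processing notes used STAR, HTSeq and edgeR on build mm9, with versions not given in the sources used here. RPKM values times gene length gave whole reads for 100% of values in all 11 columns (tolerance 0.001), and these reads were tested here, since 3 deposited count files carry another sample's reads or match no column. The deposited RPKM values served only for levels between genes. No column of another sample was present (0).

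The test was edgeR 4.0.16's quasi-likelihood test in R 4.3.3, with region and title series as terms, TMM factors, filterByExpr and Benjamini-Hochberg adjustment over 15116 genes, called at 0.05. Alternatives used DESeq2 1.42.0, limma 3.58.1 on log2(RPKM + 1) and log2(RPKM + 0.1), other scalings, no filter, other sets of libraries and each library left out. By the naming rule all 35 members are named, the 2 with the smallest p in each role and comparison are given in every library, and each other list gives at most 4 called genes per comparison, by smallest p. Further genes named (Tpsb2, Cpa3, Tnip3's values, Rel, Il1a and Hspa1a among them) were chosen after their values were seen. The 35 members and all lists were chosen with earlier results of these data known. Depth was 16873180 to 31737132 reads on genes.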

Additional observations from a re-analysis of the deposited data

Results flagged for a closer look

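Klf4 in IS replicate 4 stood apart from its group, at 43.1 CPM against 14.4 to 17.8 CPM in the other 3 IS libraries. The gap was 0.88 of the range of the group. Such a gap was looked for in 70 sets of 4 libraries, where chance gives about 1 in 20, or 3.5, and this was the 1 found. The count file under IS replicate 2 that equals no expression column, and that enters no comparison of the main analysis, held 9.52% of its reads on the 35 genes. The 11 columns held 1.08% to 3.53%. Which sample that file came from was not tested.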

How the results depend on the processing

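The caput/corpus and IS count of 24 members became 7 without the title series, where 1.49% of all tested genes were called. The cauda and IS count of 29 became 12 without the title series (9.7% of all tested genes called) and 15 in Maj4 alone (7.51%). Maj3 alone, with 1 caput/corpus library, cannot decide which members pass. With counts as filed both member counts were 0 (0% and 0.0263% of all tested genes called). With the unmatched file left out, chosen after seeing the data, they were 0 and 19 (0% and 11.7%). Leaving out each library gave 12 to 28 for caput/corpus and 22 to 28 for cauda. The share of all tested genes called was 1.53% to 9.02% and 10.8% to 20.9% in those fits. With the replicate block, the counts were 18, 24 and, between cauda and caput/corpus, 0 (2.61%, 15.5% and 0.265% of all tested genes called). Pairs of the same number and series gave correlations of 0.04 to 0.52, with 9 of 10 over 0.1. Pairs of the same series with another number gave 0.10 to 0.39, with 10 of 10 over 0.1. Pairs of different series gave -0.54 to 0.04. The first 2 ranges overlapped, so the numbers were not taken to pair libraries, but pairing is not excluded. Other settings gave 16 to 28 and 23 to 29 members, with 2.38% to 8.39% and 9.5% to 23.8% of all tested genes called. The cauda and caput/corpus median of -0.09 became 0.053 without the title series, 0.32 in Maj3 alone and 0.03 as filed with the unmatched file left out, and was -0.255 to 0.053 (without cauda replicate 4) with each library left out.

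With counts as filed, 10 of the 35 members had a positive difference in caput/corpus minus IS and 8 in cauda minus IS. In the main analysis 34 and 31 members had one. The sign turned for the medians (-0.13 in caput/corpus, -0.30 in cauda). Of the members called in the main analysis, it turned for 16 in caput/corpus and 20 in cauda. In caput/corpus minus IS these were Fosl2 (-0.13), Jun (-0.41), Jund (-0.075), Atf3 (-0.26), Egr1 (-0.33), Nr4a2 (-0.42), Klf2 (-0.12), Dusp1 (-0.004), Dusp5 (-0.32), Btg1 (-0.023), Btg2 (-0.009), Ppp1r15a (-0.24), Ier2 (-0.22), Ier5 (-0.015), Nfkbid (-0.16) and Tnfaip3 (-0.17). In cauda minus IS they were Fosl2 (-0.30), Junb (-0.33), Jund (-0.11), Atf3 (-0.69), Egr1 (-0.59), Nr4a2 (-1.55), Klf6 (-0.30), Dusp1 (-0.032), Dusp2 (-0.88), Dusp5 (-0.70), Zfp36 (-0.15), Btg1 (-0.15), Btg2 (-0.17), Ppp1r15a (-0.70), Ier2 (-0.13), Ier5 (-0.21), Nfkbia (-0.43), Nfkbiz (-0.69), Nfkbid (-0.14) and Tnfaip3 (-0.35). The cause was not tested.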
